A study of Mus musculus with 27 samples.

Results

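Leukocytes leave the blood by holding on to the vessel wall, and 9 genes of that contact were followed here in the retina of the oxygen-induced retinopathy (OIR) mouse model. They were taken by symbol from a fixed list, with no threshold on their values, and all 9 were found among the 40129 genes of the deposited table. The list was chosen with earlier results of these data known. Icam1, Icam2 and Vcam1 encode ligands of the immunoglobulin superfamily, Sele and Selp encode the vascular selectins, Selplg encodes a selectin ligand of leukocytes, and Itgal, Itgam and Itgb2 encode subunits of the leukocyte beta2 integrins. By GENCODE annotation (M21), Icam1 lies on chromosome 9, Icam2 on chromosome 11, Vcam1 on chromosome 3, Sele and Selp on chromosome 1, Selplg on chromosome 5, Itgal and Itgam on chromosome 7, and Itgb2 on chromosome 10.

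All mice were WT pups of the C57BL/6 strain (C57BL/6J in the study's methods) and gave whole retinas for RNA sequencing. OIR pups breathed 75% oxygen from day 7 to day 12 and then room air again until postnatal day 14 (OIR p14, 6 mice) or 17 (OIR p17, 8 mice). Controls (nOIR) stayed in room air until p14 (6 mice used of 7) or p17 (6 mice). Mice were perfused with PBS through the heart before the eyes were taken, and a library came from 1 retina or from both retinas of a mouse. Mice of a group shared litters, and which mouse came from which litter was not used here, so the p-values take mice as independent. The study set OIR retinas against age-matched nOIR retinas, with p14 as a phase of retinal hypoxia and p17 as a phase of retinal neovascularization.

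In the usual course of events, selectins on activated endothelium catch the sugar-coated selectin ligands of passing leukocytes, which then roll along the wall. Chemokines switch the leukocyte integrins to a binding state, and the integrins hold the cell to ICAM and VCAM proteins until it crosses the endothelium. Resting retinal vessels keep this traffic low, and microglia, the resident immune cells of the retina, carry beta2 integrins as well.

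Recovered totals ran from 17029536 to 33593428 reads per mouse. Values are normalized reads, which are counts divided by 1 size factor per mouse. The tissue label held in every mouse, since 5 rod photoreceptor genes took between 3.0% and 5.12% of all normalized reads. Lens RNA varied between libraries, and 4 lens-rich libraries (nOIR p14 mouse S5 and OIR p17 mice S2, S7 and S8) were left out in an added alternative. A gene was called when limma with Benjamini-Hochberg adjustment over the 27137 genes tested gave an adjusted p under 0.05.

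Promoter sequences of RefSeq (GRCm38.p6) were at hand for 4 of the 9 genes, namely Sele, Selp, Itgam and Icam1. The 250 bases before the start of Icam1 (chr9:21015690-21015939, plus strand) and of Sele (chr1:164047984-164048233, plus strand) are shown because both genes were called higher at p17 and both windows hold the letters GGNNATTCC, which are in capitals.
Icam1: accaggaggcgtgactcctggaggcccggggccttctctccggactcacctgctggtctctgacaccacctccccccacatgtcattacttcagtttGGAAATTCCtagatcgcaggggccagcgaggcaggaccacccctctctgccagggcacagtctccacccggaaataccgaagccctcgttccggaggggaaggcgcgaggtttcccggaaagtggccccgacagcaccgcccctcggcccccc
Sele: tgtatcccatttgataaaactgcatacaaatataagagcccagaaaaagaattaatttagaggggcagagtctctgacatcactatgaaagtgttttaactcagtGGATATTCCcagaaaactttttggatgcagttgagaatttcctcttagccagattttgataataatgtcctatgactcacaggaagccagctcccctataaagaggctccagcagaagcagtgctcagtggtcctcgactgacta
The match lies 145 to 153 bases before the start in Icam1 and 137 to 145 bases before it in Sele. GGNNATTCC was chosen after these sequences had been read, it was searched on both strands, and 2.36% of 32851 mouse promoters of this length hold it. The NF-kappaB consensus was searched only as GGGRNNYYCC, where R is A or G, Y is C or T and N is any base. In this spelling it was in 0 of the 4 promoters and in 7.25% of all promoters. Sites of another spelling were not covered by that search, so it does not show that NF-kappaB sites are absent. ACGTG, the core of the hypoxia response element, was in 0 of the 4 and in 16.6% of all. GAGGAA, a core that PU.1 binds in myeloid cells, was in Sele (1 match) and Itgam (2 matches), and in 23.3% of all promoters.

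At p17, OIR retinas held more RNA of 4 of the 9 genes, and none was called lower. Icam1 was 3.5 times, Icam2 2.67 times, Itgb2 4.04 times and Sele 5.15 times its mean in nOIR p17 mice. The Sele ratio rests on few control reads. Without 1 mouse each it ran from 4.27 (OIR p17 mouse S3 left out) to 10.5 (nOIR p17 mouse S5 left out). Neither edgeR (adjusted p = 0.101) nor DESeq2 (adjusted p = 0.0831) called Sele at p17. Of all genes tested at p17, 7.39% were called higher and 5.12% lower. At p14, Itgb2 was called higher and Vcam1 and Selplg were called lower, against 3.18% of all genes called higher and 2.91% called lower. All 9 log2 fold changes lay above 0 at p17 and 5 of 9 at p14, beside 47.1% and 52.2% of all genes tested. The p17 values of Selplg (0.03) and Itgal (0.16) were the smallest, and each fell below 0 under some alternatives. The median log2 fold change of the 9 genes was 1.26 at p17 and 0.48 at p14, beside -0.02 and 0.02 over all genes tested. With Selp set instead to 2.86, the log2 ratio of its OIR p17 mean to a floor of 3 reads, the p17 median was 1.46. That median mixes scales, since the other genes keep their limma values and the Selp ratio carries counting error. The study's own threshold also asked for a log2 fold change above 2 or below -2. By that rule 0 of the 9 genes were called by limma at p14, beside 0.744% of all genes higher and 0.14% lower, and 2 (Sele and Itgb2) at p17, beside 1.9% higher and 0.173% lower. For the difference between the ages (0.383% and 0.0516% of all genes) and between the nOIR ages (0.0111% each way) it called 0 of the 9. With the fits of DESeq2 to the recovered reads the rule called 1 gene at p14 (Sele) and 1 at p17 (Itgb2). With those of edgeR it called 1 at p14 (Sele) and 2 at p17 (Selp and Itgb2). The share of all genes that these 2 tools call by this rule was not computed. At adjusted p alone, DESeq2 called 2086 genes at p14 and 3770 at p17, edgeR 1562 and 3240, and limma 1652 and 3395. Fewer cells of a type and less RNA per cell cannot be told apart in whole retinas.

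**Figure D1:**
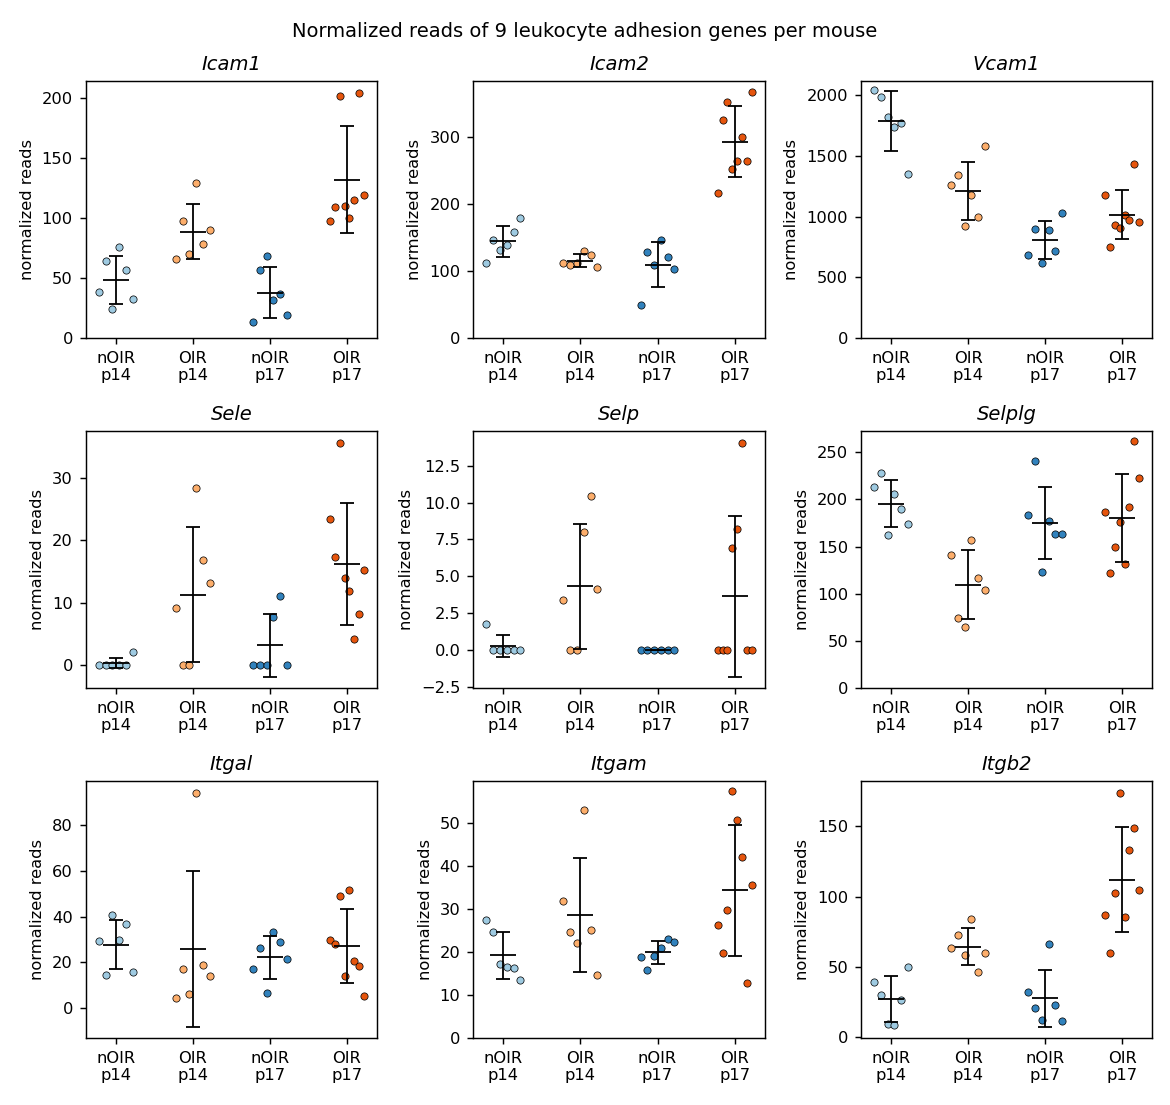
Normalized reads (y axis, linear, a separate scale for each gene) of the 9 genes in each mouse of the 4 groups, with the mean (long line) and SD (bars, which can reach below 0). Icam1 and Icam2 of all 8 OIR p17 mice lie above all 6 nOIR p17 mice, and Selplg of all 6 OIR p14 mice lies below all 6 nOIR p14 mice.

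Icam1 encodes the main endothelial ligand of the beta2 integrins and is inducible by cytokines. In nOIR p17 mice it ranged from 13.5 to 68.2 normalized reads (median 34.5), and in OIR p17 mice from 98.0 to 204.9 (median 112.9). The groups did not overlap, and OIR p17 mice S3 (201.8) and S7 (204.9) stood highest. Such a gap with the OIR mice on top was found in 3.90% of the genes tested at p17. Mean levels were 37.8 ± 21.2 (SD, n = 6) and 132.3 ± 44.4 (SD, n = 8), a log2 fold change of 1.92 (SE 0.30, adjusted p = 2.71e-05). The exact permutation test (two-sided) gave p = 0.000666, the smallest that 8 mice against 6 allow.

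At p14, Icam1 ranged from 24.3 to 76.2 normalized reads (median 47.6) in nOIR and from 66.0 to 129.5 (median 84.6) in OIR mice. The highest OIR p14 mouse was S4, and 4 of 6 OIR mice lay above every control. The log2 fold change of 0.92 (95% confidence interval 0.26 to 1.59) did not pass the adjustment over all genes (adjusted p = 0.10), while the exact permutation test of this single gene gave p = 0.00866. Icam1 levels in the nOIR mice of p14 and p17 did not differ by the test (adjusted p = 0.869). The order of the mean levels was nOIR p17, nOIR p14, OIR p14, OIR p17, and the ranges of neighbouring groups overlapped throughout. The effect at p17 exceeded that at p14 by 1.00 on the log2 scale (0.09 to 1.91), with an adjusted p of 0.402. An antisense gene, Gm47079, shares 511 exon bases (11.7% of the Icam1 exons in GENCODE M21). The kit does not mark strand, so reads from there cannot be assigned to either gene. Mean normalized reads of Gm47079 were 0.95 in nOIR and 6.82 in OIR mice at p14 (log2 fold change 2.09, adjusted p = 0.0185), and 3.38 and 3.26 at p17 (log2 fold change -0.23, adjusted p = 0.862).

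Icam2 encodes a further beta2 integrin ligand, which endothelium carries without stimulation. Its levels in nOIR p17 mice ran from 49.6 to 146.7 normalized reads (median 114.6) and in OIR p17 mice from 216.2 to 366.8 (median 282.0). Every OIR p17 mouse lay above every mouse of the 3 other groups. Such a gap over the nOIR p17 mice alone was found in 3.9% of the genes tested. The share of genes with a gap over all 3 groups was not computed. The p17 change was 1.46 on the log2 scale (SE 0.18, adjusted p = 4.34e-07, exact permutation p = 0.000666), from 109.4 ± 33.1 (SD, n = 6) to 292.3 ± 52.5 (SD, n = 8). In the p14 mice, Icam2 ranged from 111.9 to 179.0 normalized reads (median 141.9) in nOIR and from 106.3 to 130.4 (median 111.7) in OIR retinas. The p14 log2 fold change was -0.30 (95% confidence interval -0.69 to 0.09, adjusted p = 0.463). The effects at the 2 ages differed by 1.77 (SE 0.26, adjusted p = 0.000116), and 1.43% of all genes had a higher and 0.147% a lower effect at p17 by this test. The nOIR p14, OIR p14 and nOIR p17 groups overlapped with each other.

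Vcam1 encodes the ligand of the alpha4 integrins and was, per kb of merged exons, the highest of the 9 genes in every group but OIR p17. It ranged from 1348 to 2046 normalized reads (median 1796) in nOIR p14 and from 920.6 to 1579 (median 1220) in OIR p14 mice. Below every control lay 5 of the 6 OIR p14 mice. The mean fell by 32.0%, from 1785 ± 246.1 to 1213 ± 238.5 (SD, n = 6 in both groups), which on the log2 scale was -0.57 (SE 0.15, adjusted p = 0.0152, exact permutation p = 0.00433). At p17, Vcam1 was between 622.2 and 1033 normalized reads (median 807.6) in nOIR and between 754.5 and 1433 (median 963.3) in OIR mice. These ranges overlapped, and the log2 fold change of 0.33 (0.05 to 0.61) had an adjusted p of 0.125. The p17 effect was higher than the p14 effect by 0.90 (SE 0.20, adjusted p = 0.0123).

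Among the 9 genes, Vcam1 was also the one called between the untreated ages. Its nOIR mean of 1785 at p14 became 809.3 at p17, a log2 fold change of -1.15 (SE 0.15, adjusted p = 0.000167). All 6 nOIR p17 mice lay below all 6 nOIR p14 mice (exact permutation p = 0.00216, the smallest that 6 against 6 allow). Over all genes tested, 0.158% were called lower between these ages and 0.674% had such a gap. The order of the Vcam1 means was nOIR p14, OIR p14, OIR p17 and nOIR p17, from high to low.

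E-selectin (Sele) is made by activated endothelium and had few reads in any group. In nOIR p14 retinas it was at 0 in 5 of 6 mice, with 2 reads in all. In OIR p14 mice it ranged from 0 to 28.4 normalized reads (median 11.1, 72 reads in all), with S2 and S3 at 0. Sele reads were 37.1 times as frequent in OIR p14 as in nOIR p14 mice by counting alone, with a 95% interval of 9.91 to 312.4 that covers counting error only. The log2 fold change of 2.43 (SE 0.78) had an adjusted p of 0.0620 and an exact permutation p of 0.0606, so it was not called. Count models on the recovered reads did call Sele at p14, with an adjusted p of 0.0155 by edgeR and 0.00215 by DESeq2. Limma called it without OIR p14 mouse S2 (adjusted p = 0.0146) or S3 (0.0163), and with nOIR p14 mouse S4 included (0.0373).

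At p17, Sele was at 0 in 4 of 6 nOIR mice and reached 7.72 and 11.1 in S4 and S5 (19 reads in all). It was above 0 in all 8 OIR p17 mice, from 4.13 to 35.6 normalized reads (median 14.6, 129 reads). Above every control were 6 of the 8. The log2 fold change was 2.77 (95% confidence interval 1.28 to 4.26, adjusted p = 0.00847, exact permutation p = 0.00599). This call was not made by edgeR (adjusted p = 0.101) or DESeq2 (adjusted p = 0.0831). The effects at the 2 ages differed by 0.35 (-1.83 to 2.52).

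P-selectin (Selp) is stored by endothelium and platelets and moves to the surface within minutes of activation, a step that RNA does not show. The reads summed to 2 in nOIR p14, 27 in OIR p14, 0 in nOIR p17 and 33 in OIR p17 mice. It was above 0 in 4 of 6 OIR p14 mice, which ranged from 0 to 10.5 normalized reads (median 3.77), a ratio of reads of 13.9 with a 95% counting interval of 3.5 to 120.8. The nOIR p14 mouse left out, S4, had 5 reads that this ratio does not include. Of the OIR p17 mice, S4 (6.95), S5 (8.18) and S6 (14.0) had reads and the other 5 had none. Against a floor of 3 reads over the nOIR p17 group, which is 0.503 normalized reads, the OIR p17 mean of 3.65 was at least 7.24-fold higher. The exact 95% counting interval of this ratio starts lower, at 6.06. Mouse S6 weighed most, and without it the mean was 2.16 and at least 4.29-fold higher than the floor, an alternative added after the data were seen. Neither comparison was called by limma (adjusted p = 0.215 at p14 and 0.251 at p17), and the exact permutation p was 0.0606 and 0.308. By edgeR, Selp was called higher at p17 (adjusted p = 0.0419), and by DESeq2 it was not (adjusted p = 0.0985).

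Selplg encodes PSGL-1, the ligand by which leukocytes bind P-selectin, and is also expressed in microglia. Its mean fell by 43.9% at p14, from 195.6 ± 25.1 to 109.8 ± 36.4 normalized reads (SD, n = 6 in both groups). Levels ran from 161.9 to 228.6 (median 198.1) in nOIR p14 and from 64.5 to 157.0 (median 110.9) in OIR p14 mice. The groups did not overlap, a gap in this direction seen in 1.86% of the genes tested, and OIR p14 mice S2 (74.1) and S3 (64.5) were lowest. The log2 fold change was -0.89 (SE 0.21, adjusted p = 0.00699, exact permutation p = 0.00216). At p17, Selplg lay between 122.9 and 240.3 (median 170.6) in nOIR and between 122.6 and 262.5 (median 181.2) in OIR mice, a log2 difference of 0.03 (-0.37 to 0.43, adjusted p = 0.956). The difference of the effects was 0.92 (0.33 to 1.5) and was not called (adjusted p = 0.124).

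Itgb2 encodes the beta2 chain (CD18), which pairs with each of the alpha chains of this integrin family. At p14 it ranged from 8.76 to 50.2 normalized reads (median 28.3) in nOIR and from 46.1 to 84.3 (median 61.9) in OIR mice. Only OIR p14 mouse S5 (46.1) lay within the control range. Itgb2 rose from 27.3 ± 16.4 to 64.3 ± 13.1 (SD, n = 6 in both groups), or by 1.44 in log2 (SE 0.39, adjusted p = 0.0231, exact permutation p = 0.00433). This p14 call was lost by edgeR (adjusted p = 0.0550), without the 4 lens-rich libraries (0.0839), and without nOIR p14 mouse S3 (0.0731), nOIR p14 mouse S5 (0.0781) or OIR p14 mouse S4 (0.0535).

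At p17, Itgb2 was between 11.7 and 66.2 normalized reads (median 21.8) in nOIR mice and between 59.9 and 173.7 (median 103.8) in OIR mice. The ranges met between nOIR mouse S4 (66.2) and OIR mouse S2 (59.9), and the other 7 OIR mice lay above every control. The mean went from 27.7 ± 20.3 (SD, n = 6) to 112.0 ± 37.4 (SD, n = 8), a log2 fold change of 2.15 (SE 0.37, adjusted p = 7.80e-05, exact permutation p = 0.00133). The effects at p17 and p14 differed by 0.71 (-0.39 to 1.81, adjusted p = 0.690).

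Itgam and Itgal, which encode alpha chains, were not called by limma at p14 or p17. Itgam encodes the alphaM chain (CD11b) of myeloid cells and microglia. It ranged from 15.9 to 23.2 normalized reads (median 20.1) in nOIR p17 and from 12.8 to 57.6 (median 32.8) in OIR p17 mice, 6 of 8 of which lay above every control. Its log2 fold change at p17 was 0.63 (0.01 to 1.24, adjusted p = 0.208, exact permutation p = 0.0546), and without the lens-rich libraries it was 0.96 with an adjusted p that rounds to 0.05 and was just called. At p14, Itgam was between 13.6 and 27.5 (median 16.9) in nOIR and between 14.8 and 53.2 (median 24.9) in OIR mice, a log2 fold change of 0.48 (-0.18 to 1.14). In GENCODE M21, a second gene on the same strand, Gm49368, shares 3450 bases (68.7%) of the Itgam exons. Gm49368 is not among the deposited genes, and whether M28 held it could not be checked. Reads that fall on 2 genes may have been left uncounted, so the Itgam level is uncertain, and this was not tested.

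Itgal encodes the alphaL chain of LFA-1, the integrin of lymphocytes and other leukocytes. It lay between 14.6 and 40.5 normalized reads (median 29.5) in nOIR p14 mice. In OIR p14 mice it was between 4.55 and 18.8 except for S4, which had 94.0. The log2 fold change at p14 was -0.71 (-1.82 to 0.41, adjusted p = 0.581). Without 1 mouse each it ran from -1.21 to -0.39 and was not called (adjusted p from 0.184 to 0.818). At p17 the range was 6.72 to 33.1 (median 23.7) in nOIR and 5.37 to 51.8 (median 24.4) in OIR mice, a log2 difference of 0.16 (-0.88 to 1.21, adjusted p = 0.902). OIR p14 mouse S4 was also the highest of its group for Icam1, Icam2, Sele, Selplg, Itgam and Itgb2.

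**Figure D2:**
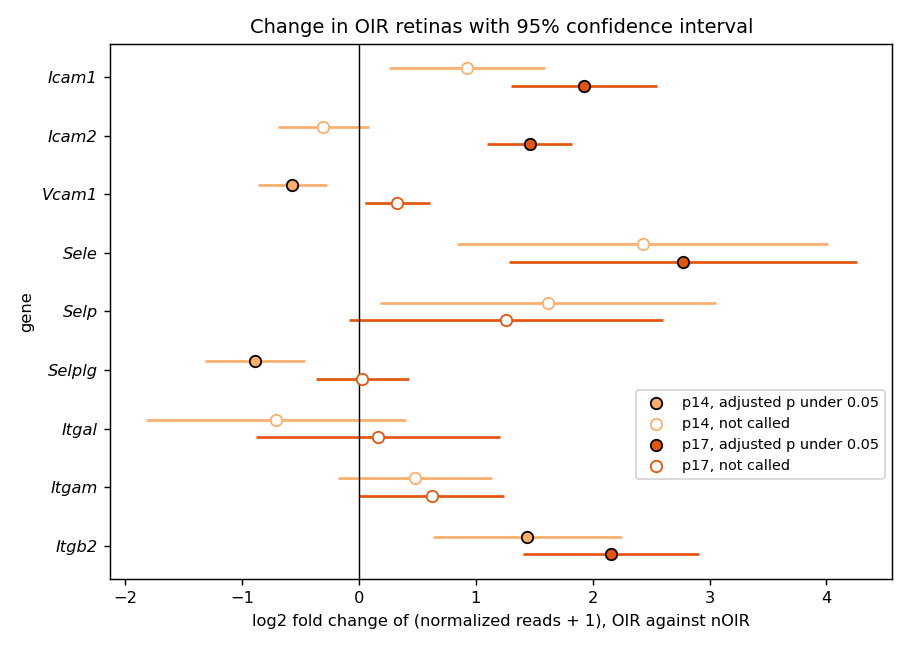
Log2 fold change of normalized reads plus 1 (x axis) of OIR against nOIR mice for each gene (y axis), at p14 (light) and p17 (dark), with 95% confidence intervals from limma and filled points for adjusted p under 0.05. Sele and Selp have the widest intervals, and Icam2 changes from -0.30 at p14 to 1.46 at p17.

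Compared per kb of merged exons, levels in nOIR p14 mice ran from Vcam1 (201.2 normalized reads per kb) over Icam2 (75.6), Selplg (45.8), Icam1 (11.2), Itgb2 (8.94), Itgal (4.22) and Itgam (3.85) to Sele (0.12) and Selp (0.067). In OIR p17 mice Icam2 came first (153.5 per kb), followed by Vcam1 (114.8), Selplg (42.3), Itgb2 (36.7), Icam1 (30.3), Itgam (6.85), Sele (5.56), Itgal (4.12) and Selp (0.83). The beta2 chain was above the alphaL chain per kb in both of these groups. Its order against Itgam is uncertain, since reads on the exons shared with Gm49368 may have been left uncounted. Exon lengths are those of GENCODE M21, while the authors counted on M28.

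The pathway around these genes was described with 5 further lists, 49 genes in all, of which 46 were tested. These lists were chosen with earlier results of these data known, so their counts are a description and not independent support. Pecam1 and Cdh5 are also among the endothelial markers counted further below. At p17, 22 of 46 were called higher and 1 lower, beside 7.39% and 5.12% of all genes tested. At p14, 9 were higher and 4 lower, beside 3.18% and 2.91%. Their median log2 fold change was 0.72 at p17 and 0.12 at p14 (-0.02 and 0.02 over all genes), and 8 had a higher effect at p17 than at p14 by the test of that difference, beside 1.43% of all genes.

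Among the selectin ligands and sialomucins, Cd44, Emcn, Cd34 and Glycam1 were called higher at p17, and Cd44 and Glycam1 at p14. Cd34, a sialomucin of endothelial tip cells and of blood progenitors, averaged 563.2 ± 65.4 normalized reads (SD, n = 6) in nOIR and 2418 ± 379.3 (SD, n = 8) in OIR mice at p17, a log2 difference of 2.09 (adjusted p = 1.32e-13). Emcn, a sialomucin of veins and capillaries that counters leukocyte adhesion, rose by 1.95 (adjusted p = 2.58e-09). Neither was called at p14, where Cd34 had a log2 fold change of 0.39 (adjusted p = 0.0597) and Emcn of -0.11. Cd34 at p14 was not called under 18 of 23 alternatives and was called under the rest (adjusted p down to 0.0154).

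Of 9 tested enzymes that build selectin ligands, 3 were called higher at p17 (St3gal4, Tpst2 and B4galt1) and none lower. The sialyltransferase gene St3gal4 rose at p17 by 0.77 (log2, adjusted p = 4.72e-06), and Tpst2, which adds sulfate to tyrosines of PSGL-1, by 0.33 (adjusted p = 0.0269). At p14, St3gal4 rose by 0.66 (adjusted p = 0.000411), while 3 enzymes were called lower. These were Fut4, a fucosyltransferase (-1.85, adjusted p = 0.0486), St3gal6 (-0.86, adjusted p = 0.0113) and Tpst1 (-0.26, adjusted p = 0.0394). At p14 the Fut4 call was lost under 17 of 23 alternatives (adjusted p up to 0.153) and the Tpst1 call under 13 of 23 (up to 0.0969). At p17 the calls of Tpst2 (8 of 25, up to 0.0850) and B4galt1 (13 of 25, up to 0.119) were lost under some as well.

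Among 5 other leukocyte integrin subunits tested, Itga4 and Itgb1 were called higher at both ages and Itgax at p17. Itgb1, a chain of many cell types, rose at p17 by 1.11 (log2, adjusted p = 3.01e-09). Itgax, the alphaX chain that also pairs with Itgb2, went from 0.18 to 18 normalized reads in the mean, with a log2 fold change of 3.41 (SE 0.71, adjusted p = 0.000874). The nOIR p17 value rests on 1 read and the OIR p17 value (SD 16.8, n = 8) on 148 reads, a ratio of 106.1 with a 95% counting interval of 18.7 to 4217.5. Itga4, which with Itgb1 forms the receptor of VCAM-1, had a log2 fold change of 0.79 at p14 (adjusted p = 0.00601) and 0.82 at p17 (adjusted p = 0.000879). The p14 call of Itgb1 was lost under 12 of 23 alternatives (adjusted p up to 0.0929).

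Of 11 other immunoglobulin-type and junctional proteins tested, 6 were called higher at p17 (Pecam1, F11r, Esam, Mcam, Cdh5 and Pvr), Alcam was lower, and at p14 Pecam1 and Mcam were higher. Mcam, a surface protein of endothelium and pericytes, averaged 331.4 ± 42.6 normalized reads (SD, n = 6) in nOIR and 2150 ± 214.2 (SD, n = 8) in OIR mice at p17, with a log2 difference of 2.7 (adjusted p = 5.08e-16). Pecam1, which guides leukocytes between endothelial cells, rose by 1.27 (adjusted p = 5.79e-10), while its p14 call was lost under 10 of 23 alternatives (adjusted p up to 0.0804). Alcam, which neurons also express, fell by 0.61 on the log2 scale (adjusted p = 0.000680).

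Of 12 genes of integrin activation, 5 were called higher at p17 (Fermt3, Apbb1ip, Skap2, Fyb and Vav1), 2 at p14 (Apbb1ip and Skap2), and Rasgrp2 was lower at p14. Fyb, an adaptor of the integrin switch in blood cells, rose at p17 by 1.87 (log2, adjusted p = 2.36e-05), and Skap2 by 1.48 (adjusted p = 8.71e-05). Rasgrp2, an exchange factor that activates Rap1, had a log2 fold change of -0.78 at p14 (adjusted p = 0.00319) and -0.05 at p17. Calls were lost under some alternatives for Skap2 at p14 (7 of 23, adjusted p up to 0.0871) and for Apbb1ip at p14 (3 of 23, up to 0.0665) and p17 (14 of 25, up to 0.126).

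**Figure D3:**
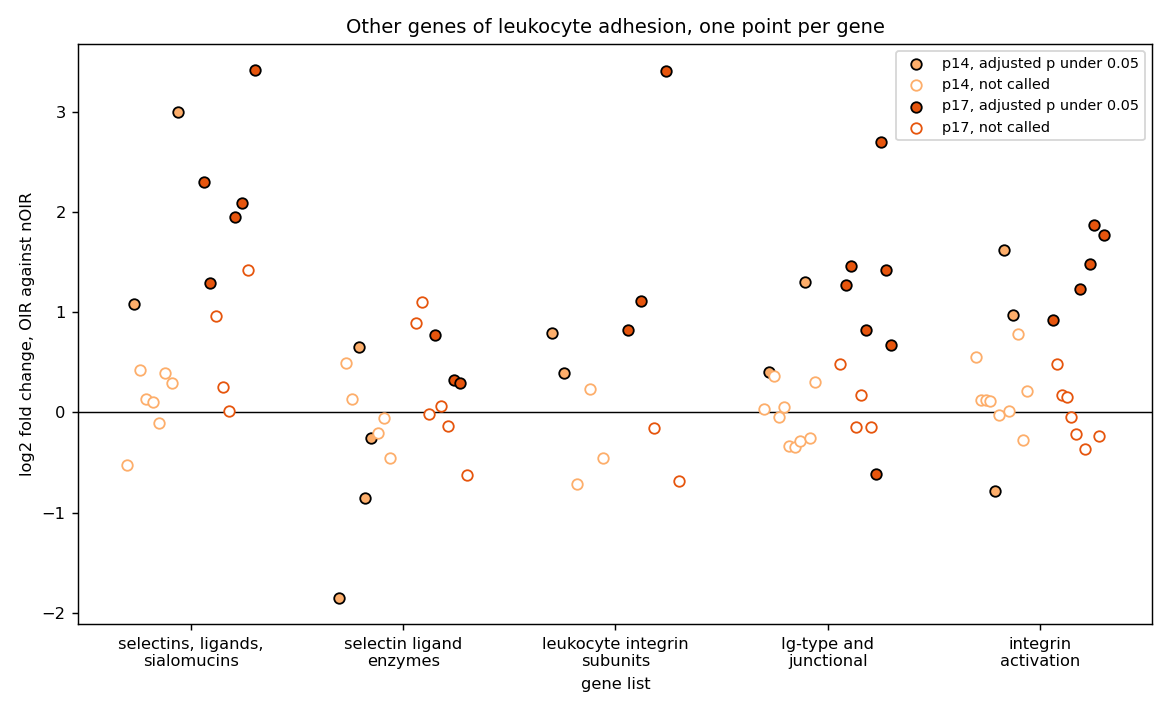
Log2 fold change of OIR against nOIR mice (y axis) for each tested gene of the 5 pathway lists (x axis), at p14 (light, left in each list) and p17 (dark, right), filled where adjusted p was under 0.05. At p17, 22 of the 46 points are filled above 0 and 1 (Alcam) below.

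At p17, 6 of 8 endothelial markers and 7 of 9 microglia and macrophage markers were called higher. Summed endothelial markers ran from 6855 to 8826 normalized reads in nOIR p17 and from 9777 to 13056 in OIR p17 mice. Summed microglia and macrophage markers ran from 1834 to 2201 and from 3208 to 5470. Also at p17, all 5 pericyte markers and 3 of 4 perivascular macrophage markers were called higher, Lyve1 was lower, and 3 of 4 Müller glia and 2 of 5 rod markers were lower. Their part in the p17 results of Icam1, Icam2, Sele and Itgb2 was not tested. At p14, 1 endothelial marker was called higher and 1 lower, the sums overlapped (8883 to 11935 in nOIR and 7096 to 11864 in OIR mice), and 2 of 9 microglia and macrophage markers were higher with overlapping sums (2310 to 2979 and 2321 to 3403). Beside the p14 falls of Vcam1 and Selplg, 3 of 5 pericyte, 3 of 4 Müller glia and 2 of 5 rod markers were called lower, and their part in these falls was not tested.

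Markers of blood leukocytes were scarce. Summed neutrophil markers (8 of 10 in the table) ranged from 19.9 to 39.7 normalized reads in nOIR p17 and from 21.8 to 106.5 in OIR p17 mice, with 1 of 5 tested markers called higher (S100a8). Mpo was at 0 in every mouse of the nOIR groups and of OIR p14, and Cxcr2 in every nOIR mouse. Both monocyte markers tested, Ccr2 and Plac8, were called higher at p17, with sums of 0 to 3.19 and 4.54 to 34.6. Summed T cell markers overlapped (81.6 to 110.4 in nOIR p17 and 80.0 to 177.1 in OIR p17 mice), and Cd3e, Cd3g and Cd2 were at 0 in every nOIR p17 mouse. Platelet markers summed to between 54.0 and 119.7 in nOIR p17 and between 132.6 and 255.4 in OIR p17 mice. Only 1 of 4 tested (Pf4) was called higher, with means of 1.48 in nOIR p17 and 60.8 in OIR p17 mice. Itga2b, Gp1ba and Gp9 were not called at p17 (log2 fold changes of 0.51, 0.40 and 0.15). At p14 the platelet sums were 75 to 106.6 in nOIR and 105.2 to 214.7 in OIR mice. All 3 red cell markers were called higher at p17 (sums of 159.5 to 911.3 in nOIR and 980.0 to 13336 in OIR mice). The part of blood cells in the results was not tested.

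**Figure D4:**
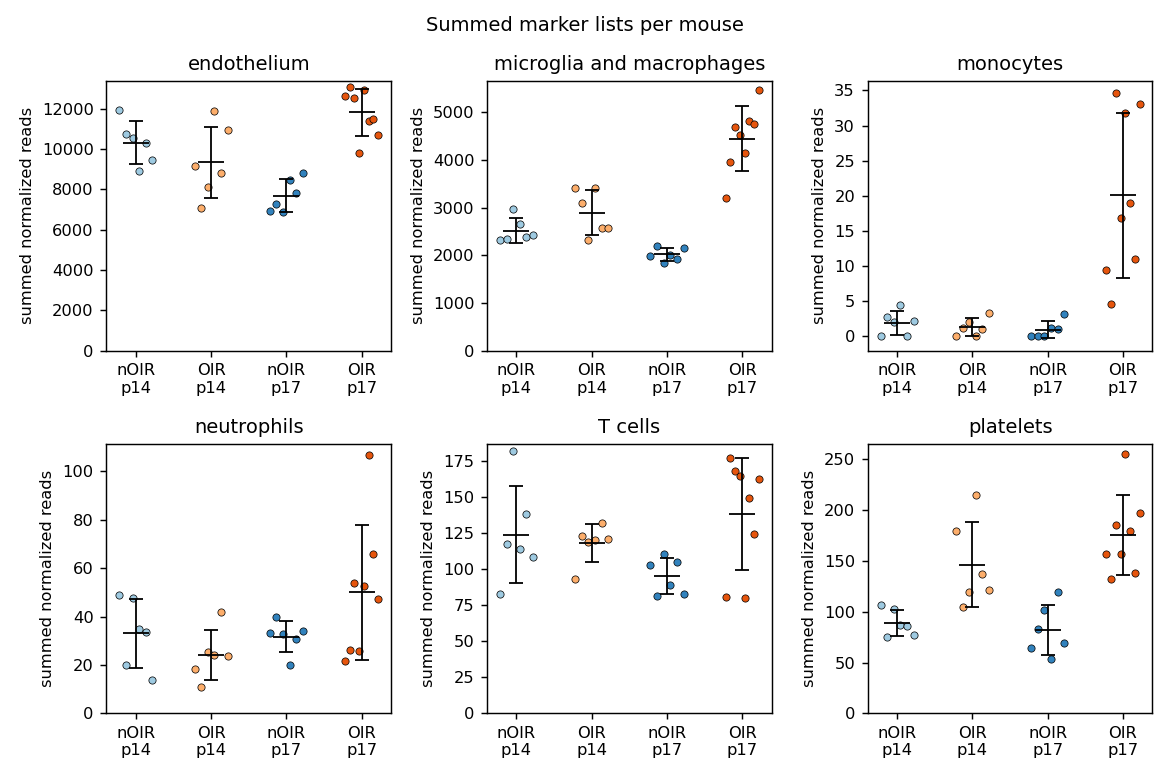
Summed normalized reads (y axis, linear) of 6 marker lists in each mouse of the 4 groups, with mean and SD. In OIR p17 mice the endothelial sum (9777 to 13056) and the microglia and macrophage sum (3208 to 5470) lie above all nOIR p17 mice, while the neutrophil and T cell sums overlap.

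For each of the 7 genes that averaged at least 10 normalized reads, the genes with the most alike pattern were taken by Pearson r of log2 values over the 26 mice, among 19004 genes, as a description. These mice share the 4 groups, so genes that differ between the groups in a like way correlate. Icam1 was most like Ezr (0.88), Slc7a1 (0.88) and Birc5 (0.87). Icam2 was most like Eva1b (0.92), Myl9 (0.91) and Serpine2 (0.91), and Itgb2 was most like Lsp1 (0.88), Cdkn3 (0.84) and Piezo2 (0.84). The closest genes reached lower values for Selplg (Casq2 0.76, Adra2b 0.76 and Khk 0.74), Vcam1 (Dnai2 0.71, Qars 0.71 and Lipg 0.69), Itgam (Ager 0.69, Rai14 0.67 and P4ha3 0.66) and Itgal (Ptprm 0.68, Gm12660 0.67 and Rbfox2 0.67).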

How the data were processed

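Whole retinas of 27 mice were sequenced, 1 library per mouse. The authors mapped single reads with STAR 2.7.8a, counted them on GENCODE M28 genes with featureCounts 2.0.1 and deposited normalized reads, a signal in which each count is divided by the mouse's DESeq2 1.34 size factor. The deposited table also holds the authors' group means, the log2 fold changes and the adjusted p-values of the authors' comparisons, none of which were used. Within a mouse, 100% of values fell on multiples of a single step (tolerance 0.001 of it), so whole reads could be recovered. Reads were not corrected for PCR copies, so intervals and floors cover counting error only. No pair of mice of a group agreed within sampling noise (lowest chi-square over degrees of freedom, 9.39).

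As in the study, nOIR p14 mouse S4 was left out for its lens RNA, which left 26 mice. Genes that averaged at least 1 normalized read entered the test, on log2(normalized reads + 1) with limma 3.58.1 (eBayes with a trend, R 4.3.3) with 1 fit for the 4 groups and Benjamini-Hochberg adjustment over 27137 genes. Fold changes are on this scale, where the pseudocount can understate those of low genes and the mean of logs can differ from the ratio of means. Single genes also had an exact permutation test (two-sided, scipy 1.17.1). The fit was tested on simulated data. The members and lists were chosen with earlier results of these data known. Named were all 9 members, for each list the 2 genes with the smallest adjusted p at p17 and those called lower, and the 3 genes most like each member. Other called pathway genes (Cd44, Glycam1, B4galt1, Itga4, F11r, Esam, Cdh5, Pvr, Fermt3, Apbb1ip and Vav1), Gm47079 and single markers were named after their values were seen. Alternatives were another pseudocount (0.1), no filter but a value above 0, a filter at a mean of 10, inclusion of S4, the compared groups only, a replicate block, equal totals, quantile normalization, edgeR 4.0.16 and DESeq2 1.42.0 on recovered reads, the study's threshold (also a log2 fold change above 2 or below -2) and each mouse left out. Leaving out lens-rich libraries, and single mice from ratios of means, was added after the data were seen. The values of 1 pathway gene are not reported here.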

Additional observations from a re-analysis of the deposited data

Results flagged for a closer look

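In OIR p14 mouse S4, Itgal stood far from the rest of the group at 94.0 normalized reads, and the next mouse of that group had 18.8. Sele in nOIR p14 mouse S7 (2.09) and Selp in nOIR p14 mouse S1 (1.78) were the only values above 0 in that group, each from 2 reads, and next to values of 0 any such value stands apart.

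The OIR effect differed between p17 and p14, by limma's test of the difference, for Icam2 (1.77 on the log2 scale, adjusted p = 0.000116) and Vcam1 (0.90, adjusted p = 0.0123). At p14 Icam2 had a log2 fold change of -0.30 and Vcam1 of -0.57, and at p17 these were 1.46 and 0.33.

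nOIR p14 mouse S4, used only in the alternative that includes it, had 2245 normalized reads of Vcam1 and 4.96 of Selp, both above the 6 other nOIR p14 mice. It lay below all 6 for Icam2 (72.4), Selplg (143.8) and Itgal (4.96).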

How the results depend on the processing

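Under 11 settings and 26 fits without 1 mouse, and leaving aside the study's threshold, 910 of 950 values of the 9 genes kept their direction and side of the threshold, 7 lost a call and 7 gained one. Another 25 changed sign and 1 became 0, and none of these 26 was called in either fit. At p17, Selplg went from 0.03 to -0.056 under the replicate block, -0.13 under quantile normalization and -0.053 without the lens-rich libraries, and without 1 mouse each from -0.067 to 0.13. Itgal at p17 ran from -0.13 to 0.43 without 1 mouse each. The difference between the ages for Sele (0.35) was -2.39 by edgeR, -2.68 by DESeq2 and -0.19 to 0.84 without 1 mouse each. That for Selp (-0.36) was 0.31 under the replicate block, 1.61 by edgeR and 0.45 without the lens-rich libraries, and that for Itgam ran from -0.016 to 0.34 without 1 mouse each. Between the nOIR ages, Itgb2 (0.03) was -0.11 with S4 included, -0.0087 at equal totals, -0.22 without the lens-rich libraries and -0.26 to 0.26 without 1 mouse each. Itgam there was -0.19 under the replicate block and -0.0034 to 0.19 without 1 mouse each, and Selp -0.29 to 0. With the study's threshold on the limma fit, the number of called genes went from 3 to 0 at p14, from 4 to 2 at p17 (Sele and Itgb2), from 2 to 0 for the difference between the ages and from 1 to 0 between the nOIR ages. On the DESeq2 fit, for which the share of all genes was not computed, the same threshold called Sele at p14 and, at p17, Itgb2 alone. Without 1 mouse each, 2 to 4 genes were called at p14, 4 at p17, 2 for the difference and 1 between the nOIR ages. Mice of the same number did not deviate together (r from -0.108 to 0.14 over 11 pairs, 1 above 0.1), and with a replicate block the counts were again 3, 4, 2 and 1. The p14 call of Itgb2 and the calls of Sele and Selp depended on the tool or on single mice, as given with these genes. Among the 46 pathway genes, calls of lower level at p14 went from 4 to 2 without the lens-rich libraries, under the replicate block and under several others. The cause of these changes was not tested. Depth limits Selp and Sele most, which had 0 to 33 and 2 to 129 reads per group.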
